A study of Drosophila melanogaster with 12 samples.

Results

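The 10 genes described here encode the precursors of neuropeptides and gut peptides that act on feeding, metabolism, diuresis or behaviour in *Drosophila*: *NPF*, *sNPF*, *AstA*, *Crz*, *Pdf*, *Tk*, *AstC*, *Dh31*, *Dh44* and *CCHa2*. They were taken from an array table by gene symbol, and all 10 were found among its 13554 genes. Expression was measured in whole adult males, aged 5 days, of 2 genotypes under 2 feeding conditions, with 3 Affymetrix arrays in each of the 4 groups. Control flies were of the w1118 stock. *dSTINGΔ* mutants were homozygous for a P-element excision allele of *dSTING* whose protein start and 5′ coding sequence are gone. All flies had spent 4 days on food, after which fed flies were kept on food and starved flies on moist filter paper for 24 hr, and total RNA was prepared from 10 whole flies per sample. The mutant is 1 stock compared with 1 control stock, so that an effect of the allele and another difference between the stocks cannot be told apart, and the labels do not say that the samples of a group came from separate cultures, so that p-values measure the spread between these samples. Values are array signals on the log2 scale, normalised by robust multi-array averaging (RMA), and the signals of different genes were not compared, because each gene has its own probes.

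Neuropeptides are cut from larger precursors, stored in dense core vesicles and released from neurons or endocrine cells to act on G protein-coupled receptors, often at a distance. In flies several of these genes are expressed both in the brain and in the enteroendocrine cells of the midgut, where *Tk*, *NPF*, *AstA*, *AstC*, *Dh31* and *CCHa2* products are made. *CCHa2* is also expressed in the fat body, and in larvae its product signals to the insulin-producing cells of the brain. The arrays measured the RNA of whole bodies, so that fewer cells of a type and less RNA per cell cannot be told apart, and peptide levels or release were not measured.

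The signal of *dSTING* (CG1667) was 5.85 ± 0.42 (SD, n = 3) in fed control flies against 2.24 ± 0.23 in fed mutants, and 5.37 ± 0.13 against 2.49 ± 0.11 in starved flies. Array medians ranged from 5.82 to 5.88. The mean of 4 testis markers ranged from 7.50 to 8.53 over the 12 arrays, that of 4 accessory gland markers from 8.20 to 9.97 and that of 4 female germ line and follicle markers from 2.95 to 3.27. Of the 10 neuropeptide genes, 4 (*sNPF*, *AstA*, *AstC* and *CCHa2*) lay above the median of their array on all 12 arrays, *Dh31* on 8, *Tk* on 5 and *NPF* on 3. *Dh44*, *Crz* and *Pdf* lay below it on every array. The SD within groups was 0.06 for *Tk*, smaller than in all but 2.98% of genes, and 0.31 for *sNPF*, larger than in 95.28% of genes.

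**Figure D1:**
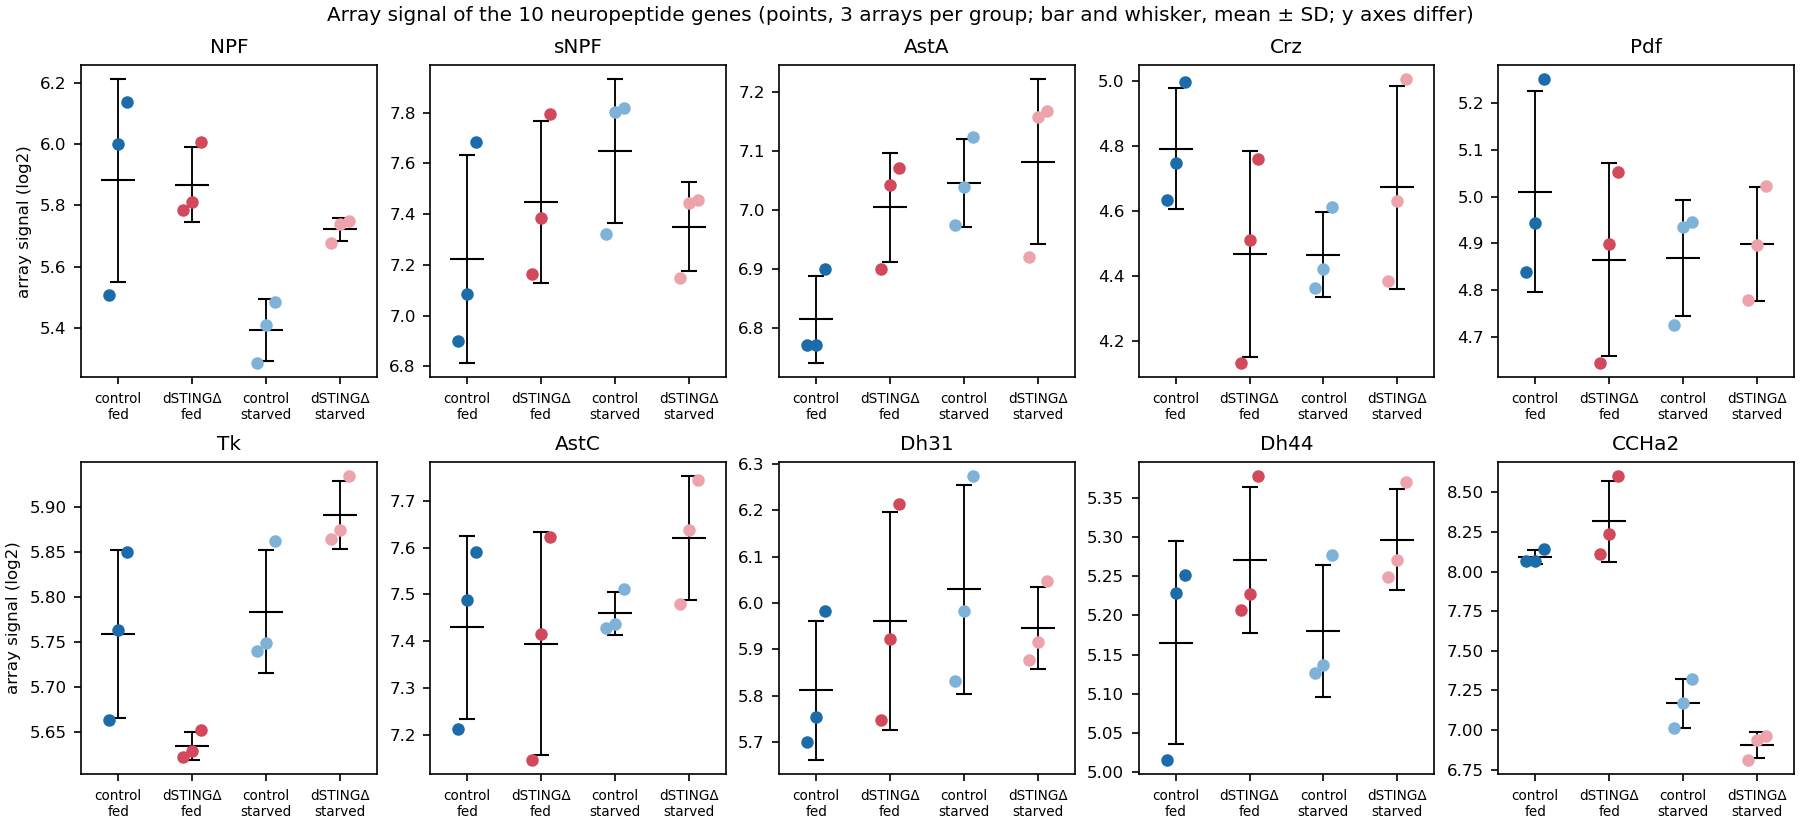
Array signal (log2, y axis, a separate scale for each gene) of the 10 neuropeptide genes in the 4 groups (x axis). Points are single arrays, and the bar and whiskers are the mean ± SD of 3 arrays. *CCHa2* separates fed from starved arrays in both genotypes, from 8.07 to 8.60 against 6.81 to 7.32, whereas the groups of *Pdf* and *Dh44* overlap.

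Starvation lowered *CCHa2*, the gene of a nutrient-dependent gut and fat body peptide, in both genotypes. The only other calls on starvation were *NPF* in control flies and *Tk* in mutants. In control flies 2 of the 10 genes fell (*CCHa2* and *NPF*) and none rose, where 5.55% of all genes fell and 5.68% rose. In *dSTINGΔ* mutants *CCHa2* fell and *Tk* rose, where 9.52% of all genes fell and 7.30% rose. A gene was called when its adjusted p from limma was under 0.05 over all 13554 genes. At an unadjusted p under 0.05 the counts were 3 of 10 in control flies and 2 of 10 in mutants, against 29.0% and 29.3% of all genes. With 10 genes, counts this small do not set the list apart from all genes. The median difference over the 10 genes was 0.02 in control flies and 0.03 in mutants, beside -0.00 and 0.02 over all genes.

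The 3 fed control arrays gave 8.07, 8.07 and 8.14 for *CCHa2*, and the starved ones 7.01, 7.17 and 7.32. Fed mutants gave 8.11, 8.24 and 8.60, and starved mutants 6.81, 6.93 and 6.97. Every starved array therefore lay below every fed array of either genotype. The fall was 0.93 in control flies (log2 difference -0.93, SE 0.12, adjusted p = 0.00138 from limma), a 1.90-fold lower signal. In mutants the log2 difference was -1.41 (SE 0.12, adjusted p = 9.7e-06 from limma), which is 2.66-fold. Markers of the accessory gland, a male reproductive gland, fell on starvation as well, with medians of -0.63 in control flies and -1.15 in mutants. These were 2 of 4 and 4 of 4, beside 5.55% and 9.52% of all genes. Their mean ran from 9.44 to 9.78 in fed controls, 8.87 to 9.12 in starved controls, 9.51 to 9.97 in fed mutants and 8.20 to 8.85 in starved mutants. Of 4 midgut markers, 3 had a difference below 0 and 1 above it in each genotype, with medians of -0.43 and -0.34. Of these, 1 was called lower in control flies and 0 in mutants. The part of tissue content in the *CCHa2* and *NPF* values was not tested. *CCHa2* ranked 48 among all genes by p in control flies and 65 in mutants. The decrease was larger in mutants by 0.49 (95% interval 0.11 to 0.86), a difference that did not pass the correction over all genes (adjusted p = 0.170 from limma). Starved mutants had the lowest *CCHa2* signals, below every starved control array, with a genotype difference of -0.26 (SE 0.12, adjusted p = 0.153). In fed flies the genotypes overlapped and differed by 0.22 (SE 0.12, adjusted p = 0.267). Ordered by mean, *CCHa2* was lowest in starved mutants, then starved controls, then fed controls and highest in fed mutants, and only the fed groups overlapped. Both falls passed the test under each of the 19 alternatives that were run.

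*NPF* encodes neuropeptide F, the fly relative of vertebrate neuropeptide Y, which promotes feeding. Fed control arrays gave 5.51, 5.9995 and 6.14, and starved control arrays 5.28, 5.41 and 5.48. Mutant arrays gave 5.79, 5.81 and 6.01 in fed flies and 5.68, 5.74 and 5.75 in starved flies. Starved arrays lay below fed arrays in both genotypes, by the smallest margin at the fed control array of 5.51. The log2 difference on starvation was -0.49 in control flies (SE 0.14, adjusted p = 0.0397 from limma) and -0.15 in mutants (SE 0.14, adjusted p = 0.528). Their difference, 0.34 (95% interval -0.08 to 0.76), did not pass the test (adjusted p = 0.371). Starved mutants lay above starved controls on all arrays, with a difference of 0.33 (SE 0.14, adjusted p = 0.115), whereas fed groups overlapped and differed by -0.01 (SE 0.14). The fall in control flies passed the test under 8 of 18 alternatives, and its adjusted p ran from 9.6e-04 to 0.151. Without the fed control array of 5.51 (replicate 1) it was -0.68 (adjusted p = 0.00234) and the difference of responses 0.53 (adjusted p = 0.0401), both past the test. The genotype difference of starved flies, which does not use that array, stayed at 0.33. Its SE went from 0.14 to 0.09, because all groups share an estimate of the spread, and it passed too (adjusted p = 0.0178 from limma). Without fed control replicate 3 the fall was -0.37 (adjusted p = 0.151) and the difference of responses 0.22 (adjusted p = 0.615). The genotype difference of starved flies was again 0.33 (adjusted p = 0.0658 from limma), and none of these passed the test. The call was also lost without fed control replicate 2, any starved control array, fed mutant replicate 1 or starved mutant replicate 1 or 3.

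*Tk* encodes the tachykinin precursor, whose gut peptides restrain lipid synthesis in enterocytes. Fed mutants gave 5.62, 5.63 and 5.65, the lowest of the 4 groups, and starved mutants gave 5.86, 5.87 and 5.93, the highest. Control arrays lay between them, at 5.66, 5.76 and 5.85 in fed flies and 5.74, 5.75 and 5.86 in starved flies. The rise in mutants was 0.26 (SE 0.08, adjusted p = 0.0383 from limma, 1.19-fold), and the difference in control flies was 0.02 (SE 0.08, adjusted p = 0.862). The difference between these, 0.23 (95% interval -0.01 to 0.47), did not pass the test (adjusted p = 0.292). Mutants lay below controls when fed (-0.12, adjusted p = 0.333) and above them when starved (0.11, adjusted p = 0.373), without overlap in either condition. The margins were small, with nearest mutant and control arrays of 5.6516 and 5.6630 when fed and of 5.8639 and 5.8623 when starved. The call in mutants was kept under 8 of 18 alternatives, with adjusted p from 0.0131 to 0.137, and leaving out any array of the fed mutants, starved mutants or starved controls ended it. In the RefSeq annotation the *Tk* gene model overlaps that of *Ect3*, a beta-galactosidase gene that was higher in mutants by 0.62 in fed and 0.98 in starved flies (adjusted p = 0.0135 and 4.8e-04) and differed by -0.00 between starved and fed mutants. The table of values does not give the strand of the probes, and whether *Ect3* RNA contributed to the *Tk* signal was not tested.

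**Figure D2:**
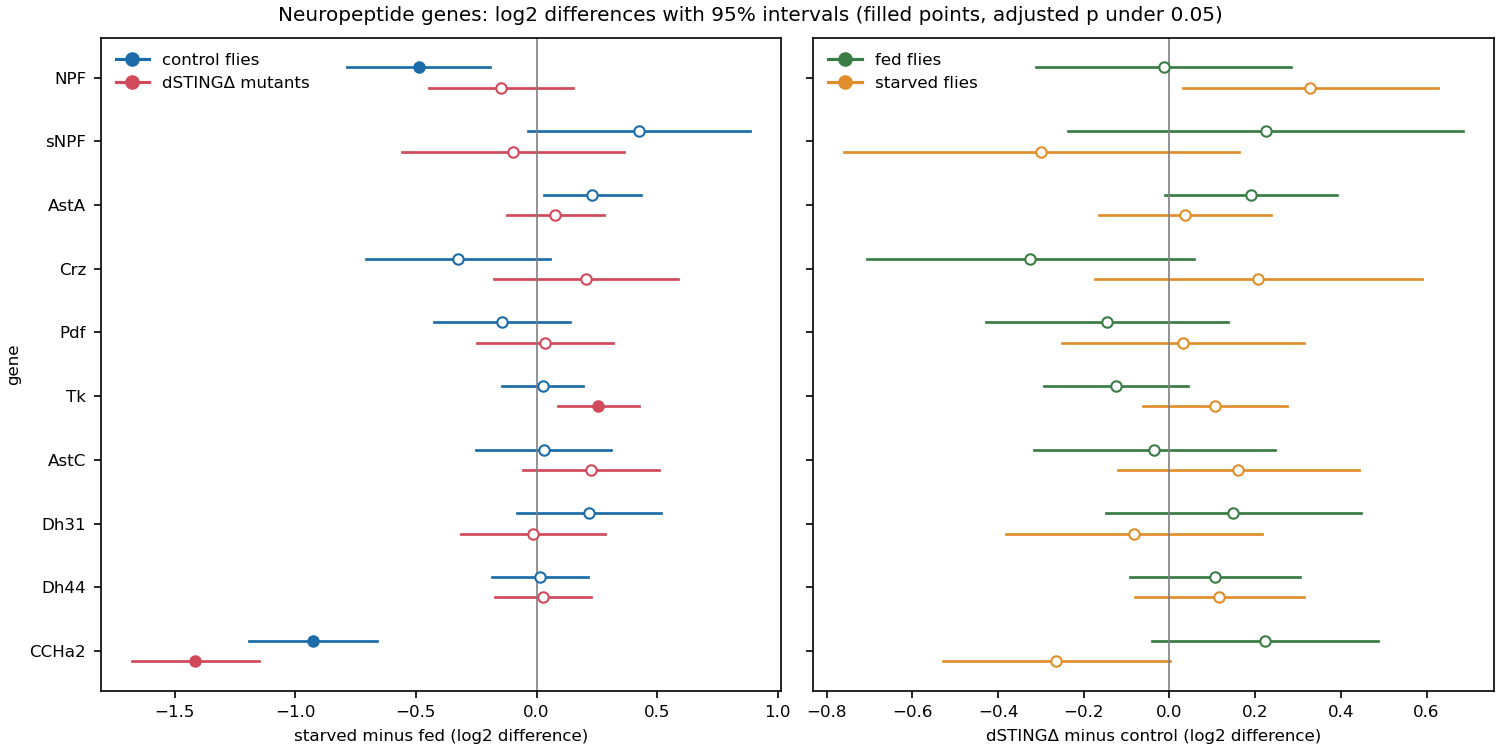
Log2 differences (x axes) of the 10 neuropeptide genes (y axis), starved minus fed on the left for control flies and mutants, and *dSTINGΔ* minus control on the right for fed and starved flies. Points are limma estimates with 95% intervals, filled where the adjusted p was under 0.05, which holds for *CCHa2* in both genotypes, *NPF* in control flies and *Tk* in mutants on the left and for no gene on the right.

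No neuropeptide gene passed the test for genotype in either feeding condition. Under fed conditions 0 of 10 genes were called by limma, and 0 had an unadjusted p under 0.05, where 6.20% of all genes were called higher in mutants and 6.26% lower. Under starved conditions 0 of 10 were called and 1, *NPF*, had an unadjusted p under 0.05, where 9.01% of all genes were called higher and 10.9% lower. The log2 differences ranged from -0.32 (*Crz*) to 0.22 (*sNPF*) in fed flies and from -0.30 (*sNPF*) to 0.33 (*NPF*) in starved flies. With 3 arrays per group the 95% intervals, not adjusted for the number of genes, reached 0.17 on either side of the estimate for *Tk* and 0.46 for *sNPF*. A difference whose interval excluded 0 could still miss a call. This held for *NPF* in starved flies (0.33, 95% interval 0.03 to 0.63, adjusted p = 0.115 from limma). The 2 genotypes did not overlap for 1 of 10 genes when fed (*Tk*, against 28.2% of all genes) and for 3 when starved (*NPF*, *Tk* and *CCHa2*, against 42.6%). On starvation the groups did not overlap for 4 genes in control flies (*NPF*, *AstA*, *Crz* and *CCHa2*, against 28.4%) and for 3 in mutants (*NPF*, *Tk* and *CCHa2*, against 38.8%). The response to starvation differed between genotypes for 0 of 10 genes by limma, with 1 (*CCHa2*) at an unadjusted p under 0.05, where 0.590% of all genes had a higher and 0.738% a lower response in mutants. The comparisons share groups, since fed control arrays enter both the fed genotype comparison and the starvation comparison in control flies.

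Of the other peptides that restrain or promote feeding, *sNPF* encodes short neuropeptide F, which is made by many neurons and stimulates food intake and growth. Its arrays gave 6.90, 7.09 and 7.69 in fed controls, 7.16, 7.39 and 7.79 in fed mutants, 7.32, 7.80 and 7.82 in starved controls and 7.15, 7.44 and 7.46 in starved mutants. All groups overlapped. The difference on starvation was 0.43 in control flies (SE 0.21, adjusted p = 0.207) and -0.10 in mutants (SE 0.21, adjusted p = 0.812). Without fed control replicate 1, whose *sNPF* signal of 7.69 was the highest of its group, the difference in control flies was 0.65 (adjusted p = 0.0319), and without fed control replicate 3, the lowest at 6.90, it was 0.26 (adjusted p = 0.564). *AstA*, whose galanin-like peptides inhibit feeding, gave 6.77, 6.77 and 6.90 in fed controls and 6.97, 7.04 and 7.12 in starved controls, which did not overlap, while mutants gave 6.90, 7.04 and 7.07 fed and 6.92, 7.16 and 7.17 starved. The difference in control flies was 0.23 (SE 0.09, adjusted p = 0.121), and in mutants 0.08 (SE 0.09, adjusted p = 0.633).

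Neuron markers, like *sNPF* and *AstA*, had their lowest group mean in fed controls, but they did not follow *sNPF* in starved flies. There the marker mean was 7.11 in controls and 7.15 in mutants, where *sNPF* had means of 7.65 and 7.35. The mean of 17 neuron markers was 6.46 to 6.96 on fed control arrays and 6.92 to 7.28 on the other 9. All 17 had a positive difference both in fed mutants against fed controls and in starved against fed controls. Over all 13554 genes 6528 and 6695 did. Both comparisons use the same fed control arrays. Over all genes, pairs of these arrays had root mean square differences of 0.29 to 0.38, against 0.18 to 0.26 within the other groups. Of the 17, 5 rose in fed mutants (*CadN*, *para*, *unc-13*, *Rdl* and *nSyb*) and 4 in starved controls (*CadN*, *para*, *Rdl* and *unc-13*), with medians of 0.32 and 0.30, and 0 of 17 passed in the other 2 comparisons by limma. Over all genes 6.20% and 5.68% were called higher in these comparisons. Of the 5 calls in fed mutants *CadN* was kept under 18 of 18 alternatives, *para* under 17, *unc-13* under 12, *Rdl* under 10 and *nSyb* under 6 of 19, and of the 4 in starved controls *CadN* under 17 of 18, *para* under 15, *Rdl* under 11 and *unc-13* under 9 of 19. The 3 genes whose pattern was most like that of *sNPF* over the 12 arrays were *Tsp97E*, *fne* and *nrv3*, of which *fne* encodes an RNA-binding protein of neurons and *nrv3* a nervous system subunit of the sodium pump. After centring each gene on its own mean, their root mean square differences from *sNPF* were 0.0797, 0.0799 and 0.0884 of a log2 unit, where *sNPF* itself varied by 0.296, and *fne* is one of the 17 markers. The part of neuron content in the *sNPF*, *AstA* and *Dh31* values was not tested. The genes nearest to *NPF* were *CG5110*, *Atg12* and *EloC* (0.0923, 0.106 and 0.107, where *NPF* varied by 0.248), and those nearest to *CCHa2* were *CG6660*, *alpha-Est10* and *CG5002* (0.146, 0.201 and 0.208, where *CCHa2* varied by 0.611).

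**Figure D3:**
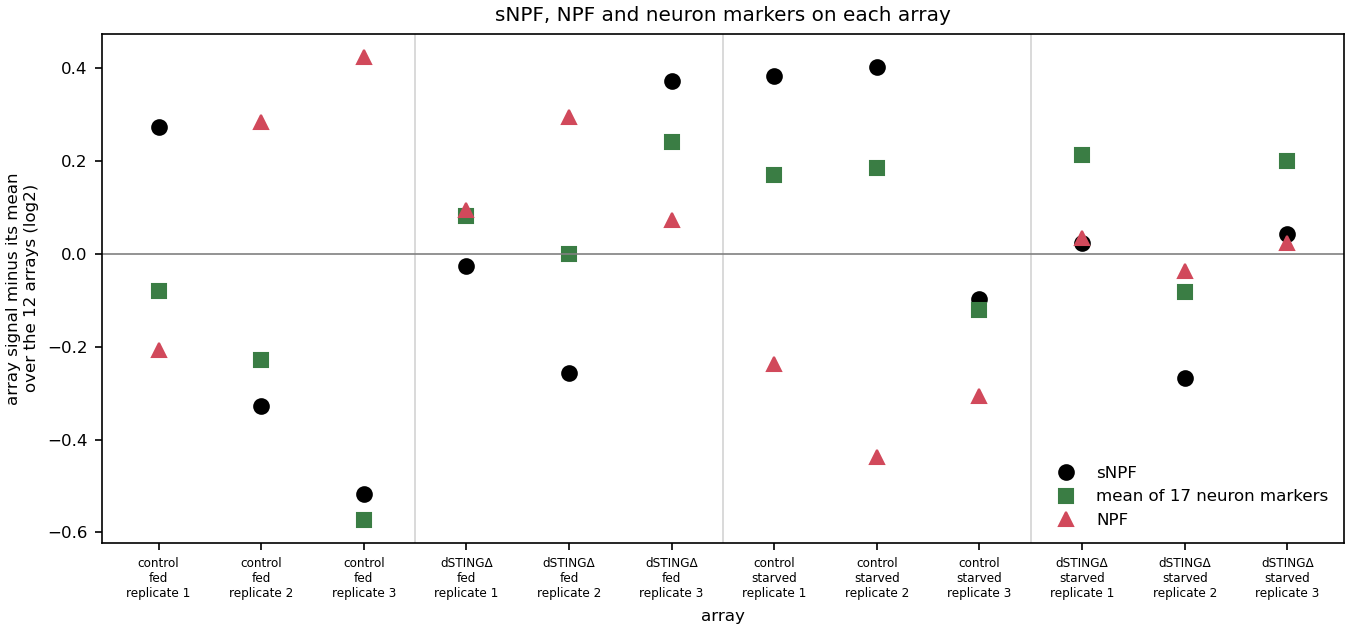
Array signal minus its mean over the 12 arrays (log2, y axis) for *sNPF*, *NPF* and the mean of 17 neuron markers on each array (x axis, by group and replicate). *sNPF* and the neuron markers were lowest on fed control replicate 3, where *NPF* was at its highest, 6.14.

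The brain peptide genes *Crz* and *Pdf* were called in no comparison. *Crz* encodes corazonin, a stress peptide related to gonadotropin-releasing hormone that in males also acts on ejaculation. It gave 4.63, 4.75 and 5.00 in fed controls, 4.36, 4.42 and 4.61 in starved controls, 4.13, 4.51 and 4.76 in fed mutants and 4.39, 4.63 and 5.00 in starved mutants. Only the 2 control groups did not overlap, with a difference of -0.33 (SE 0.18, adjusted p = 0.242), against 0.21 in mutants (SE 0.18, adjusted p = 0.484). The difference between these 2 responses was 0.53 (95% interval -0.01 to 1.07, adjusted p = 0.287). *Pdf* encodes the peptide of the clock neurons that sets daily activity, and its 12 arrays ran from 4.64 to 5.25 with every pair of compared groups overlapping and differences from -0.15 to 0.03.

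The other gut and diuretic peptide genes, *AstC*, *Dh31* and *Dh44*, were called in no comparison, and all their compared groups overlapped. *AstC*, which encodes a somatostatin-like peptide of neurons and enteroendocrine cells, gave 7.21, 7.49 and 7.59 in fed controls, 7.43, 7.44 and 7.51 in starved controls, 7.15, 7.41 and 7.62 in fed mutants and 7.48, 7.64 and 7.74 in starved mutants. Its differences on starvation were 0.03 in control flies and 0.23 in mutants (SE 0.13 each, adjusted p = 0.902 and 0.274). *Dh31*, the gene of a calcitonin-like diuretic hormone that drives gut contractions, ran from 5.70 to 5.98 in fed controls, from 5.83 to 6.27 in starved controls, from 5.75 to 6.21 in fed mutants and from 5.88 to 6.05 in starved mutants. *Dh44*, the gene of a corticotropin-releasing factor-like hormone whose brain neurons respond to nutritive sugars, ran from 5.02 to 5.38 over all 12 arrays, and its 4 differences lay between 0.01 and 0.12. The *Dh44* gene model overlaps that of *Fst*, which rose by 2.37 in starved mutants (adjusted p = 0.0207), where *Dh44* differed by 0.03. That of *Dh31* overlaps *Bace*, which fell by 0.57 in starved mutants (log2 difference -0.57, adjusted p = 0.0156), where *Dh31* differed by -0.01. Among 4 enteroendocrine transcription factors only *pros*, which is also active in neurons, was called, higher in fed mutants by 0.86 (adjusted p = 0.0319, and up to 0.117 without fed control replicate 3 or any fed mutant array). The mean of 4 midgut markers ranged from 8.52 to 9.06 in fed controls, 9.20 to 9.51 in fed mutants, 8.29 to 8.84 in starved controls and 8.74 to 9.22 in starved mutants. The 4 did not move together. In both feeding conditions 3 were higher in mutants and 1 (*betaTry*) lower, and on starvation 3 were lower and 1 (*Amy-p*) higher in both genotypes. The part of midgut content in the gut peptide values was not tested.

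Of the receptors of these peptides, *AstC-R2* and *CrzR* were lower in fed mutants, *AstC-R2* and *sNPF-R* lower in starved mutants, and *Dh44-R2* and *Dh31-R* higher in fed mutants. All 14 receptor genes on the list were measured. In fed mutants 2 of 14 were higher and 2 lower, beside 6.20% and 6.26% of all genes, and in starved mutants 0 were higher and 2 lower, beside 9.01% and 10.9%. On starvation 1 rose in control flies (*Pdfr*) and 1 in mutants (*CrzR*), beside 5.68% and 7.30% of all genes, none fell, and 0 of 14 differed in their response by limma. The median over the 14 was 0.05 and -0.00 for the genotype in fed and starved flies, beside -0.01 and 0.00 over all genes.

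*AstC-R2*, a receptor for allatostatin C, had the largest differences. It gave 4.61, 5.05 and 5.84 in fed controls against 3.97, 3.98 and 4.08 in fed mutants, and 4.93, 5.25 and 5.61 in starved controls against 3.51, 3.59 and 3.94 in starved mutants, so that mutants lay below controls on all arrays of both conditions. The log2 difference was -1.16 in fed flies (SE 0.25, adjusted p = 0.0103 from limma) and -1.59 in starved flies (SE 0.25, adjusted p = 8.4e-04), and both were called under all 18 alternatives. *AstC-R1*, the other receptor of the same peptide, differed by 0.18 and 0.07 and was not called. Its group means ran from 3.81 to 3.99, and those of *AstC-R2* were 4.01 in fed and 3.68 in starved mutants. All of these lay below the array medians of 5.82 to 5.88, and whether signals this low show the full size of a difference was not tested. The ligand gene *AstC* differed by -0.04 and 0.16 in the same comparisons.

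*CrzR*, the corazonin receptor, which is expressed in the fat body among other tissues, was lowest in fed mutants. The arrays gave 5.83, 5.84 and 6.06 in fed controls, 4.86, 4.97 and 5.12 in fed mutants, 5.72, 5.87 and 5.94 in starved controls and 5.39, 5.60 and 5.86 in starved mutants. Fed mutants lay below all other arrays, with a genotype difference of -0.93 (SE 0.12, adjusted p = 4.6e-04 from limma) in fed flies and -0.23 (SE 0.12, adjusted p = 0.230) in starved flies. On starvation *CrzR* rose by 0.63 in mutants (SE 0.12, adjusted p = 0.00328) and differed by -0.07 in controls (adjusted p = 0.761), while the difference of the responses, 0.70, did not pass the test (adjusted p = 0.0705). The calls held under all 18 alternatives.

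The receptor of short neuropeptide F, *sNPF-R*, gave 5.15, 5.25 and 5.37 in starved controls and 4.81, 4.83 and 4.84 in starved mutants, a difference of -0.43 (SE 0.08, adjusted p = 0.00317 from limma). In fed flies the mutants, at 4.83 to 4.93, again lay below the controls, at 5.00 to 5.17, but the difference of -0.19 did not pass the test (adjusted p = 0.154). *Dh44-R2*, a receptor for the Dh44 peptide, gave 5.81, 5.86 and 5.99 in fed controls and 6.25, 6.28 and 6.43 in fed mutants, higher by 0.43 (SE 0.09, adjusted p = 0.0106). In starved flies it overlapped between genotypes. *Dh31-R* was higher in fed mutants by 0.40 (SE 0.11, adjusted p = 0.0377), a call kept under 11 of 19 alternatives and lost without fed control or fed mutant replicate 2 or 3, starved control replicate 1 or starved mutant replicate 1 (adjusted p from 0.0560 to 0.138). *Pdfr*, the receptor of pigment-dispersing factor, rose by 0.39 in starved controls (SE 0.12, adjusted p = 0.0472), a call kept under 8 of 19 and lost without fed control replicate 2 or 3, or without replicate 1 of any of the other 3 groups, starved control replicate 2, or replicate 3 of either mutant group (adjusted p from 0.0527 to 0.162). *Dh31-R* and *Dh44-R2* had their lowest means in fed controls, the group with the lowest neuron marker level. *Pdfr* had a mean of 6.39 in fed controls and 6.44 in fed mutants, which overlapped. It was higher by 0.29 in starved than in fed mutants (adjusted p = 0.108 from limma), without overlap. The neuron marker mean was 7.14 in fed and 7.15 in starved mutants. The part of neuron content in the *Dh31-R*, *Dh44-R2* and *Pdfr* values was not tested. The receptors of NPF, tachykinin and CCHamide-2 (*NPFR*, *TkR99D*, *TkR86C* and *CCHa2-R*) were called nowhere, with differences between -0.12 and 0.17. Their group means ran from 3.62 to 4.03, below the array medians of 5.82 to 5.88. Whether signals this low can show a change was not tested.

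**Figure D4:**
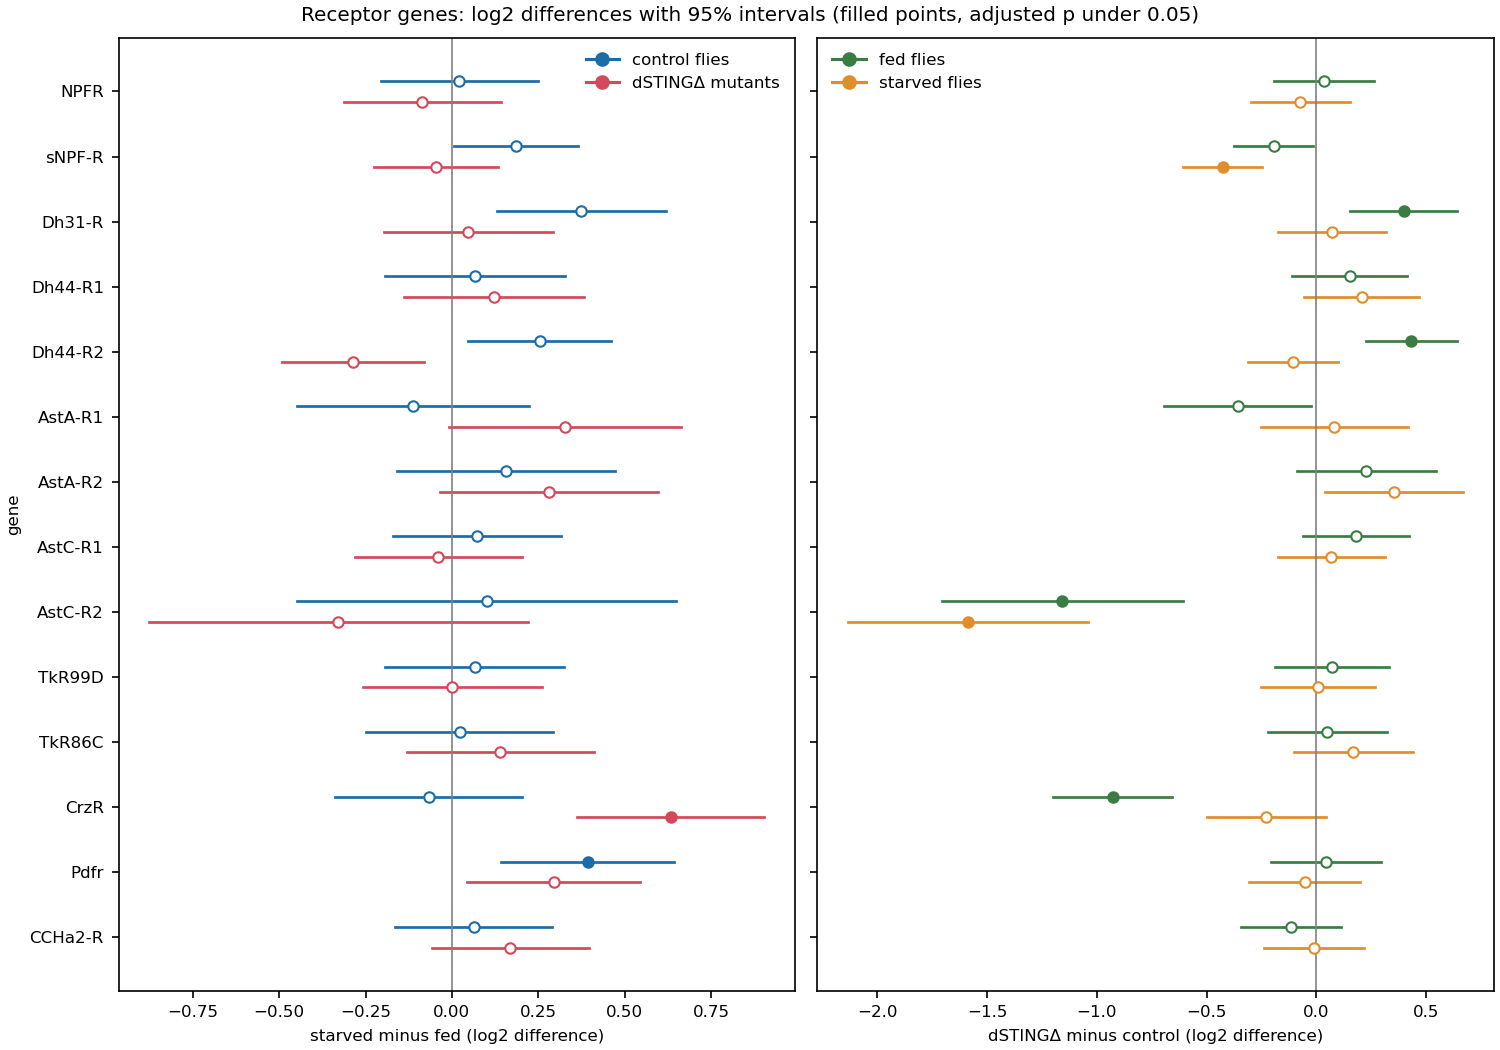
Log2 differences (x axes) of the 14 receptor genes (y axis), drawn as for the ligands, with 95% intervals and filled points where the adjusted p was under 0.05. On the right *AstC-R2* lies left of 0 in fed and starved flies (-1.16 and -1.59) and *CrzR* in fed flies (-0.93).

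Among 27 measured genes of other neuropeptides and peptide hormones, 2 were higher and 3 lower in fed mutants (6.20% and 6.26% of all genes), and 3 higher and 1 lower in starved mutants (9.01% and 10.9%) against their controls. On starvation 2 rose and 1 fell in control flies (5.68% and 5.55% of all genes), and 1 rose and 4 fell in mutants (7.30% and 9.52%). These counts are small and most lie near the shares over all genes. *CG8317* (*Lst*, limostatin, a suppressor of insulin secretion) rose on starvation by 0.61 in control flies (adjusted p = 0.00729) and by 0.99 in mutants (adjusted p = 5.9e-05 from limma), and was lower in fed mutants (-0.49, adjusted p = 0.0130, and 0.0542 without fed mutant replicate 2). *SIFa*, made by a few brain neurons and active in feeding and courtship, gave 4.06, 4.29 and 4.81 in fed controls and 3.54, 3.67 and 3.80 in starved controls, a fall of 0.71 (log2 difference -0.71, adjusted p = 0.0138, and 0.0586 without starved control replicate 2). Starved mutants lay at 4.56 to 4.73, above the starved controls by 0.96 (adjusted p = 7.9e-04). *Lk*, which encodes the diuretic peptide leucokinin, was higher in starved mutants by 0.76 (adjusted p = 2.7e-04). *Nplp2* was the only gene of this list whose response to starvation differed between genotypes, at 11.28 to 11.64 in starved controls and 10.11 to 10.60 in starved mutants, with differences on starvation of -0.42 (not called) and -1.37 (adjusted p = 1.8e-05). Its interaction was -0.95 (SE 0.18, adjusted p = 0.0299), kept under 10 of 18 alternatives and lost (adjusted p from 0.0510 to 0.0927) without any fed mutant array, fed control replicate 2, starved control replicate 2 or 3, or starved mutant replicate 1 or 2.

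**Figure D5:**
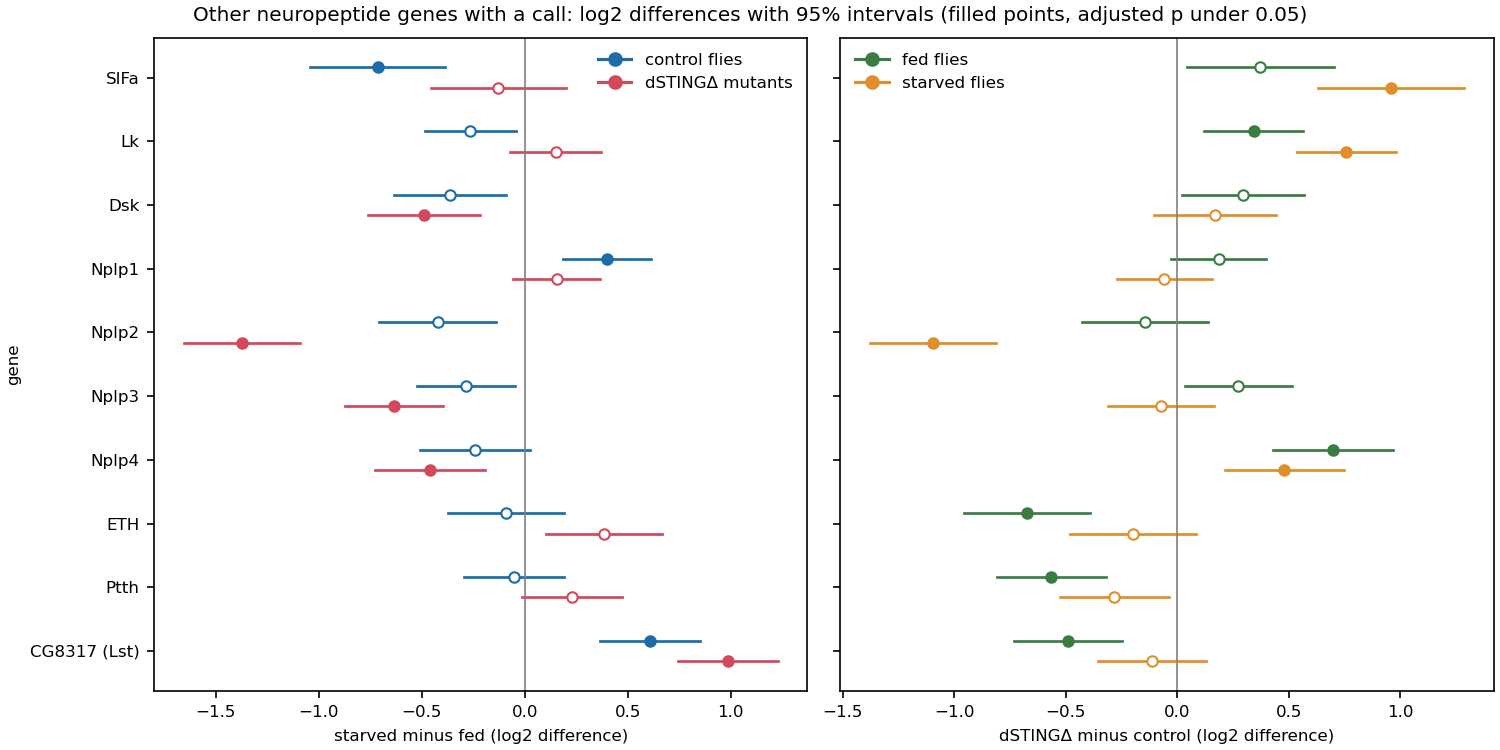
Log2 differences (x axes) of the 10 other neuropeptide genes with a call in any comparison (y axis), with 95% intervals and filled points where the adjusted p was under 0.05. *CG8317* lies right of 0 on starvation in both genotypes (0.61 and 0.99), and *SIFa* and *Lk* lie right of 0 in starved mutants against starved controls (0.96 and 0.76).

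Of 14 genes for precursor processing and dense core vesicles, 0 were called in fed mutants and 0 on starvation in mutants by limma, 1 was higher (*QC*) and 2 lower (*Fur2* and *isoQC*) in starved mutants against controls, beside 9.01% and 10.9% of all genes, and 1 fell in starved controls (*QC*), beside 5.55%. *Fur2*, which encodes a furin-type precursor protease, differed by -0.33 (adjusted p = 0.0128) and *isoQC*, a second glutaminyl cyclase, by -0.47 (adjusted p = 0.0223). Without starved control replicate 1 or starved mutant replicate 2 *Fur2* was not called (adjusted p up to 0.0562), nor was *isoQC* without starved control replicate 1 or 2 or any starved mutant array (up to 0.0973). *QC*, a glutaminyl cyclase that closes the amino-terminal ring found in corazonin, was at 0.36 in starved mutants against controls (adjusted p = 0.0248) and -0.44 on starvation in controls (adjusted p = 0.0194). The first was lost without starved control replicate 1 or 2 or starved mutant replicate 2 or 3 (adjusted p up to 0.0979), and the second without starved control replicate 1 or 2 or fed control replicate 3 (up to 0.0891).

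The genes of insulin and adipokinetic hormone cells and their receptors moved in both directions. Of 7 measured, 1 was higher and 1 lower in fed mutants (6.20% and 6.26% of all genes) and 2 higher and 2 lower in starved mutants (9.01% and 10.9%). On starvation 1 rose and 3 fell in control flies (5.68% and 5.55%), and 1 rose and 2 fell in mutants (7.30% and 9.52%). *InR*, the insulin receptor, rose on starvation by 0.96 in controls (adjusted p = 0.00230) and by 1.76 in mutants (adjusted p = 5.1e-06 from limma). The insulin-like peptide gene *Ilp2* was higher in mutants, by 0.85 in fed flies (adjusted p = 2.5e-04) and 1.29 in starved flies (adjusted p = 6.8e-06), whereas *Ilp3* was lower, with differences of -1.42 (adjusted p = 3.9e-05) and -0.91 (adjusted p = 6.6e-04). *AkhR*, the adipokinetic hormone receptor of the fat body, fell on starvation in both genotypes, as *CCHa2* did, by 0.43 in controls (log2 difference -0.43, adjusted p = 0.0241) and by 0.78 in mutants (log2 difference -0.78, adjusted p = 2.3e-04). The fall in controls was lost without fed control replicate 3 or starved control replicate 1 or 2 (adjusted p up to 0.0848). *Ilp5* fell in both genotypes as well, with differences of -1.26 (adjusted p = 7.0e-04) and -0.94 (adjusted p = 6.2e-04). *Akh* itself was not called, at 0.02 and 0.14.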

How the data were processed

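Whole males of 4 groups (3 Affymetrix arrays each) were compared. The authors normalised the arrays by RMA (affy 1.48.0, R 3.2.0) with an Entrez gene mapping and deposited a table of log2 values, 1 for each gene on each array. The sample records, deposited by the authors, hold the same log2 values to 2 decimals. The authors' own comparisons (34 columns of t, p, adjusted p, fold change and cluster) were not used. Table columns name a group and an array number that the sample labels do not hold. Each column matched 1 sample record, of the same group. Fits that leave out an array or block the replicate number used the sample records, which carry the replicate number.

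One mean per group was fitted with limma 3.58.1 (R 4.3.3) and moderated by empirical Bayes (8 residual and 4.50 prior degrees of freedom). P-values were adjusted by Benjamini-Hochberg over 13554 genes and called under 0.05. The number of arrays limits the precision. Named genes were the 10 members, all receptors, up to 4 called genes with the smallest adjusted p of each other list in a comparison (fewer where fewer were needed), and the 3 nearest genes of the 3 members with the widest range of group means. *nSyb* was named after its values were seen. The members and lists were chosen with earlier results of these data known. Of 31 other peptide genes 27 were matched. Overlapping gene models came from RefSeq Release 6, used for names and overlaps only, where 13263 of the Entrez identifiers were found. Alternatives were the 6 arrays compared alone, a replicate block, trended and robust moderation, array quality weights, median-centred arrays, genes above the median signal, the sample records, each array left out and other thresholds. Same-numbered arrays had correlations of their deviations from -0.40 to 0.37, so the numbers were not taken as pairs.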

Additional observations from a re-analysis of the deposited data

Results flagged for a closer look

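*Tk* rose on starvation in *dSTINGΔ* mutants, with no overlap between fed and starved arrays. Mutants lay below controls when fed and above them when starved, but neither genotype difference was called (adjusted p = 0.333 and 0.373 from limma). The nearest arrays of mutants and controls were 5.6516 against 5.6630 when fed and 5.8639 against 5.8623 when starved. The response of mutants exceeded that of controls by 0.23 (0.2317 on the log2 scale, SE 0.11), and the test of this difference itself gave an adjusted p of 0.292 (limma), so that a difference between genotypes was not shown.

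*Nplp2*, a neuropeptide-like precursor, fell more on starvation in mutants than in controls by limma's interaction test (-0.95, SE 0.18, adjusted p = 0.0299), with differences of -1.37 and -0.42. The interaction call was kept under 10 of 18 alternatives. It was lost in 8 of the fits that left out an array (adjusted p from 0.0510 to 0.0927 from limma).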

How the results depend on the processing

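No called result changed direction under the alternatives that were run. Of the 50 pairs of neuropeptide gene and comparison, 39 were called at an adjusted p under 0.05 in no setting and 4 were called under the settings of the report. The count in fed flies by genotype was 0 under every setting. In starved flies by genotype it became 1 (*NPF*) with the 6 arrays alone (adjusted p = 0.0212) and with array quality weights (0.0151), and leaving out 1 array gave 0 to 1. On starvation in control flies, 2 became 1 (*CCHa2*) with the 6 arrays alone, with the replicate block, with genes above the median signal and under an adjusted p of 0.01, became 6 with array quality weights (*NPF*, *CCHa2*, *sNPF*, *Dh31*, *AstA* and *Crz*), and was 1 to 3 without 1 array. On starvation in mutants 2 became 1 (*CCHa2*) with the replicate block, with genes above the median signal and under 0.01, and was 1 to 2 without 1 array. The interaction count of 0 became 2 with array quality weights (*NPF* and *CCHa2*, adjusted p = 0.0421 and 0.0323) and was 0 to 1 without 1 array. *NPF* and *Tk* were not in the set of genes above the median signal. The causes of the other changes were not tested.

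With the replicate block the adjusted p of *NPF* in control flies was 0.0560 and that of *Tk* in mutants 0.0560. Only 3 of 12 arrays correlated best with their own number, and over all genes the counts of calls went from 1690, 2705, 1522, 2280 and 180 to 1458, 2448, 1173, 2075 and 95 with the block. The number of arrays, 3 per group, limits which differences can be seen.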
